A study of Mus musculus with 6 samples.

Results

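The regions described here are 1612 stretches of open chromatin that were called as peaks both in the atria of the embryonic mouse heart (HT) and in the posterior second heart field (pSHF), that lay away from gene ends, and that were relatively stronger in HT. They were chosen by measured values of the same 2 peak lists. HT and pSHF peaks that overlapped one to one gave 22574 pairs, and for each pair the log2 ratio of the HT over the pSHF fold enrichment was centred by subtracting 0.29, the median over all pairs. Members had a centred log2 ratio of 0.5 or more and both summits over 1 kb from either end of any annotated gene, a condition met by 11504 pairs. Before centring, this is an HT value at least 1.73 times the pSHF value. Below, the 8091 such pairs between -0.5 and 0.5 are called balanced and the 1801 pairs at -0.5 or less pSHF-stronger, and the members are also called HT-stronger distal peaks.

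The data come from a study of gene networks downstream of Hedgehog signalling. Both tissues were dissected at embryonic day 10 from wild-type CD1 mouse embryos, an outbred stock, and pieces of several embryos were pooled and dissociated with TrypLE, and open chromatin was profiled by ATAC-seq. Each tissue had 3 samples but 1 deposited peak list, so no value below carries a replicate error, and the spread between samples is unknown. In such bulk samples, more cells with an open site and a more open site per cell cannot be told apart.

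In ATAC-seq a transposase inserts adapters into DNA that nucleosomes and other proteins leave free, and sites with many insertions become peaks. Open sites at gene starts are mostly promoters, while open sites away from genes include enhancers, which bind transcription factors and can act on a promoter over a long distance. The pSHF is the progenitor mesoderm behind the heart that adds cells to its venous pole, and the atria are beating myocardium lined by endocardium and filled with blood.

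Some members lay on a promoter even though they counted as distal, because genes can have a start within the gene body. Of 1560 members with RefSeq starts at hand on their chromosome, 91 had their HT summit within 250 bp of a RefSeq start (5.83%, exact Clopper-Pearson 95% interval 4.72 to 7.11, which like every interval below covers counting error over peaks only). The 250 bases before 8 of these starts are printed 5′ to 3′ in the direction of the gene, from RefSeq GRCm38.p6. Sequence could be read only at RefSeq starts, so these are promoter bases and not whole peaks. At *Gm36062*, *Dcakd* and *Csrp1* the HT summit lay 25, 20 and 6 bases past the start, outside the printed bases. The first 5 printed had the highest centred ratios among members with the HT summit between 250 bases before and 50 after the start. *Mylk3*, *Csrp1* and *Cdkn1a* were chosen after their values were seen, as 2 muscle genes and a cell cycle gene. Capitals mark matches to the searched motifs on either strand.
Tfdp2, chr9:96258455-96258704, plus strand: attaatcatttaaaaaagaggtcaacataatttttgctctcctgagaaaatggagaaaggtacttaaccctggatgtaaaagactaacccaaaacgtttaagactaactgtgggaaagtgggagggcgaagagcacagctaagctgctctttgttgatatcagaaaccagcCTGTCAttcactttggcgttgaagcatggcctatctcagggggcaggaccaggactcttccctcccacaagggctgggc
Gm36062, chr7:135398063-135398312, minus strand: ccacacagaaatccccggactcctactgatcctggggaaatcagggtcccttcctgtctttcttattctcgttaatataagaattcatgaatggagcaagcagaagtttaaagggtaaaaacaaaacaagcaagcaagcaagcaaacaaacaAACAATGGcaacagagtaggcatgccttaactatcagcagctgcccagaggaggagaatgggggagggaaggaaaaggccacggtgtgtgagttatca
Gm3604, chr13:62383175-62383424, minus strand: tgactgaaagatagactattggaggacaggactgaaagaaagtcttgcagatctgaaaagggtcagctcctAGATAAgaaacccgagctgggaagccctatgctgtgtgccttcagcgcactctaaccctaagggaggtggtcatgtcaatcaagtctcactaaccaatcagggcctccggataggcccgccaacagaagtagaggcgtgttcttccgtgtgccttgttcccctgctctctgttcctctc
Dcakd, chr11:103017148-103017397, minus strand: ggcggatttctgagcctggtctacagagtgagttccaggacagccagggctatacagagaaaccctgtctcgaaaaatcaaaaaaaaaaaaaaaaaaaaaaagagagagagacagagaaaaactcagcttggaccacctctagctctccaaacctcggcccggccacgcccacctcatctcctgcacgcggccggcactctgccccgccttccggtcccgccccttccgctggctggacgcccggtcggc
Znfx1, chr2:167043496-167043745, minus strand: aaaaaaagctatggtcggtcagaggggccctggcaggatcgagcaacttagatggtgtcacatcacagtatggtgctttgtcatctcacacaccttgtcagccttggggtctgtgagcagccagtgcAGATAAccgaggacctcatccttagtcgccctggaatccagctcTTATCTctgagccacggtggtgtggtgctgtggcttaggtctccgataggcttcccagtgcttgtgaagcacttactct
Mylk3, chr8:85381042-85381291, minus strand: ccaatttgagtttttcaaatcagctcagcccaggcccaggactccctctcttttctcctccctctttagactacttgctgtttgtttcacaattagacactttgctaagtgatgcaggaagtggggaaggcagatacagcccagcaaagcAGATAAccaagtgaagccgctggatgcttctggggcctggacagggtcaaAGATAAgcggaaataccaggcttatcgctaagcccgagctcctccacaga
Csrp1, chr1:135728917-135729166, plus strand: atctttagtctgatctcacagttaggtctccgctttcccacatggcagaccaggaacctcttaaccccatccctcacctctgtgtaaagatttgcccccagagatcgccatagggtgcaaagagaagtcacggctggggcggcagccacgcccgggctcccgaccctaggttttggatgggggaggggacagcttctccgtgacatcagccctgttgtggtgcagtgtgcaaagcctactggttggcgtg
Cdkn1a, chr17:29093519-29093768, plus strand: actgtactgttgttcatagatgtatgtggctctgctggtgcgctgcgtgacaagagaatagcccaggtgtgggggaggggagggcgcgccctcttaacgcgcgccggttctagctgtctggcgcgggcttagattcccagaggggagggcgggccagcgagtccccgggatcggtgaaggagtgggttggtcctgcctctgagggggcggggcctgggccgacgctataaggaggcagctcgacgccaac

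*Mylk3* encodes the cardiac kinase of the myosin light chain, and its internal start had HT and pSHF fold enrichments of 9.77 and 4.91, with the HT summit 55 bases upstream. The printed bases held the GATA motif AGATAA at positions -100 and -50, counted from the start to the first printed base of the motif. *Znfx1*, a zinc finger helicase gene of the antiviral response, also held this motif at -123 and -79, with fold enrichments of 13.7 in HT and 5.08 in pSHF. At *Gm3604*, a predicted gene, the motif stood at -179, beside values of 16.2 in HT and 5.92 in pSHF. *Tfdp2*, which encodes a dimer partner of E2F factors, held a MEIS motif at -79 (11.9 in HT and 3.94 in pSHF). The long noncoding RNA gene *Gm36062* held a SOX motif at -98 (10.4 in HT and 3.47 in pSHF). None of the searched letters stood in the printed bases of *Dcakd* (14.6 in HT and 5.37 in pSHF), of *Csrp1*, a LIM domain gene of smooth muscle (13.1 in HT and 5.83 in pSHF), or of *Cdkn1a*, the gene of a cell cycle inhibitor (11.6 in HT and 5.52 in pSHF).

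The share of these starts with a GATA motif lay near that of RefSeq promoters at large. AGATAA on either strand stood in 9 of the 91 windows of 300 bases at members (9.89%, interval 4.62 to 17.9), against 38 of 708 at balanced peaks (5.37%, 3.83 to 7.29), 3 of 70 at pSHF-stronger peaks (4.29%, 0.893 to 12.0) and 11.2% of all 32851 RefSeq windows. The other motifs were searched on both strands too. Among all windows, the MEIS motif TGACAG was in 19.2%, the HAND E-box CATCTG in 17.2%, the TEAD motif CATTCC in 14.7%, the NKX2 motif CACTTNA in 11.5%, the AP-1 motif TGANTCA in 7.81% and the homeobox motif TAATTA in 5.29%. The ETS motif CCGGAAGT was in 3.89%, the FOX motif TGTTTAC in 3.65%, the T-box motif AGGTGTNA in 3.03%, the MEF2 motif TAAAAATA in 2.72% and the CArG box in 1.63%. The SOX motif AACAATGG was in 1.05%, the GLI motif GGGTGGTC in 0.807%, the PBX-HOX motif TGATTGAT in 0.746% and the CTCF core in 0.557%. A CArG box can contain the homeobox motif and a CTCF core the HAND E-box. The windows at members held MEIS in 16.5%, TEAD in 16.5%, the HAND E-box in 14.3%, NKX2 in 9.89% and the CArG box and GLI in none. Median GC content was 57.3% at members, 61.3% at balanced and pSHF-stronger peaks and 52.7% over all windows. A match is a description of letters and not a measured binding site.

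The HT summits at these starts lay mostly just upstream, 63 of 91 (69.2%) on that side with a median offset of -29 bases. Such starts were found at 9.06% of balanced peaks (708 of 7814, interval 8.43 to 9.72) and at 4.03% of pSHF-stronger peaks (70 of 1739, 3.15 to 5.06). The 91 members were stronger in both tissues than the other members, with median fold enrichments of 11.5 in HT and 5.92 in pSHF, against 9.49 in HT and 4.31 in pSHF elsewhere. Their median centred log2 ratio was lower, 0.64 against 0.76 elsewhere. Balanced peaks at starts were stronger too, with 8.84 in HT and 7.17 in pSHF, against 5.75 in HT and 4.85 in pSHF elsewhere. The fold enrichments compared are those that chose the classes. *Ccdc77*, *Zfand6*, *Esrrg*, the estrogen-related receptor gamma gene, and *Lmna*, the lamin A/C gene, were among the 91 members (the last 2 named after their values were seen). *Esrrg* had 13.2 in HT and 7.59 in pSHF, and *Lmna* had 11.5 in HT and 6.47 in pSHF.

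**Figure D1:**
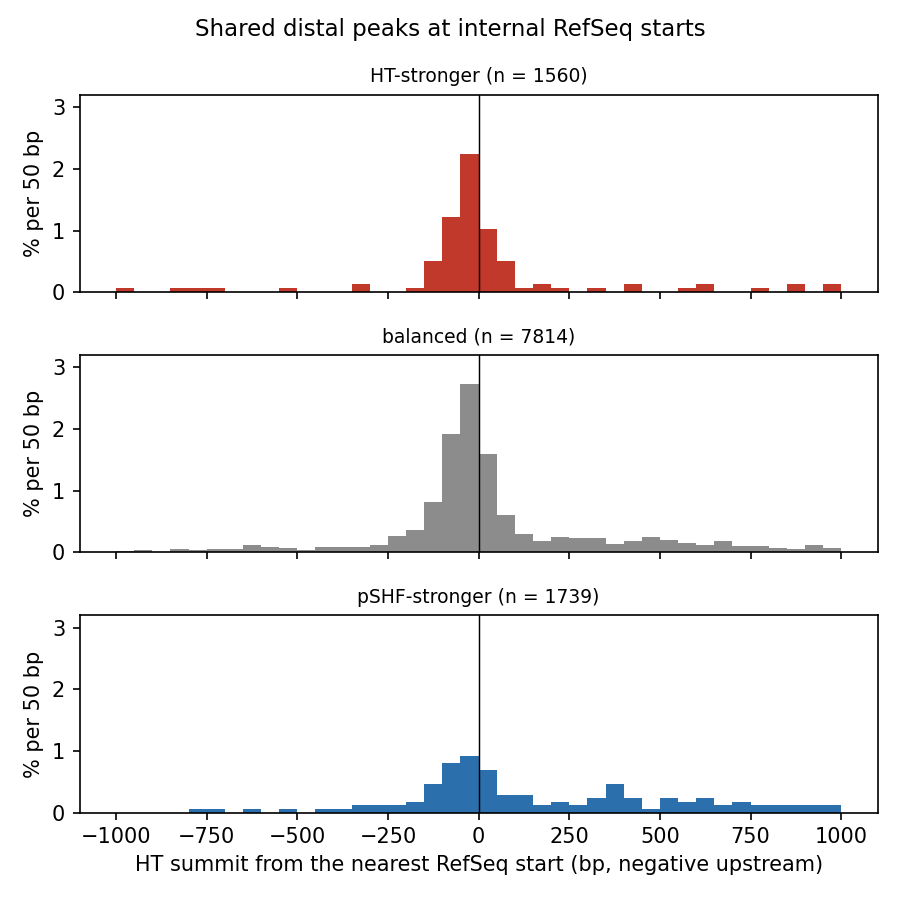
Distance of the HT summit from the nearest RefSeq start (x axis, bp, negative upstream) for HT-stronger (1560), balanced (7814) and pSHF-stronger (1739) shared distal peaks on chromosomes with RefSeq starts at hand, as the percent of each class per 50 bp. All 3 classes peak just upstream of the start, and 5.83%, 9.06% and 4.03% lie within 250 bp.

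The members were strong peaks in HT and weak ones in pSHF, as the rule requires of their ratio. Fold enrichment is the authors' value for the height of a summit over the peak caller's background. Its median over members was 9.63 in HT (quartiles 7.95 and 11.8, range 4.45 to 22.6) and 4.31 in pSHF (3.77 and 5.11, range 2.54 to 9.96). Balanced peaks had medians of 5.91 in HT and 4.85 in pSHF, and pSHF-stronger peaks 4.39 in HT and 5.92 in pSHF. The centred log2 ratio of members had a median of 0.75, quartiles of 0.61 and 1.0 and a highest value of 2.13. Recovered from the fold enrichment and the p-value, the median pileup, the number of extended reads over a summit, was 23 in HT and 8 in pSHF. The median −log10 q was 17.4 in HT and 3.25 in pSHF, and the lowest was 5.57 in HT and 1.30 in pSHF, which is the floor of the list. A site whose pSHF peak fell under that floor counts as HT-restricted and is no member.

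Of all 22574 pairs, 2526 (11.2%) had a centred ratio of 0.5 or more. The share was 14.0% of distal pairs, which are the members, and 8.26% of the 11070 pairs near a gene end, while 15.7% of distal pairs were pSHF-stronger. Nothing is read from these shares, since the same ratio chose the members. In counting error alone, the 95% interval of the centred pileup ratio lay above 0 in 615 members (38.2%), and reached 0 or below in the others. It lay above 0 in 4.68% of all pairs, 5.80% of distal pairs and 0.643% of balanced peaks. The pileups were recovered from the fold enrichments that chose the members, so nothing is read from these shares either. By pileup, the centred log2 ratio was under 0.5 in 116 members (7.20%). At the threshold the members just inside were in *Itgbl1* (11.1 in HT and 6.46 in pSHF, centred log2 ratio 0.5001) and *Arhgap23* (8.41 in HT and 4.87 in pSHF, 0.5004). The pairs just outside were in *Fign* (11.1 in HT and 6.46 in pSHF) and near *Sertad3* (14.1 in HT and 8.18 in pSHF), both at 0.4994.

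**Figure D2:**
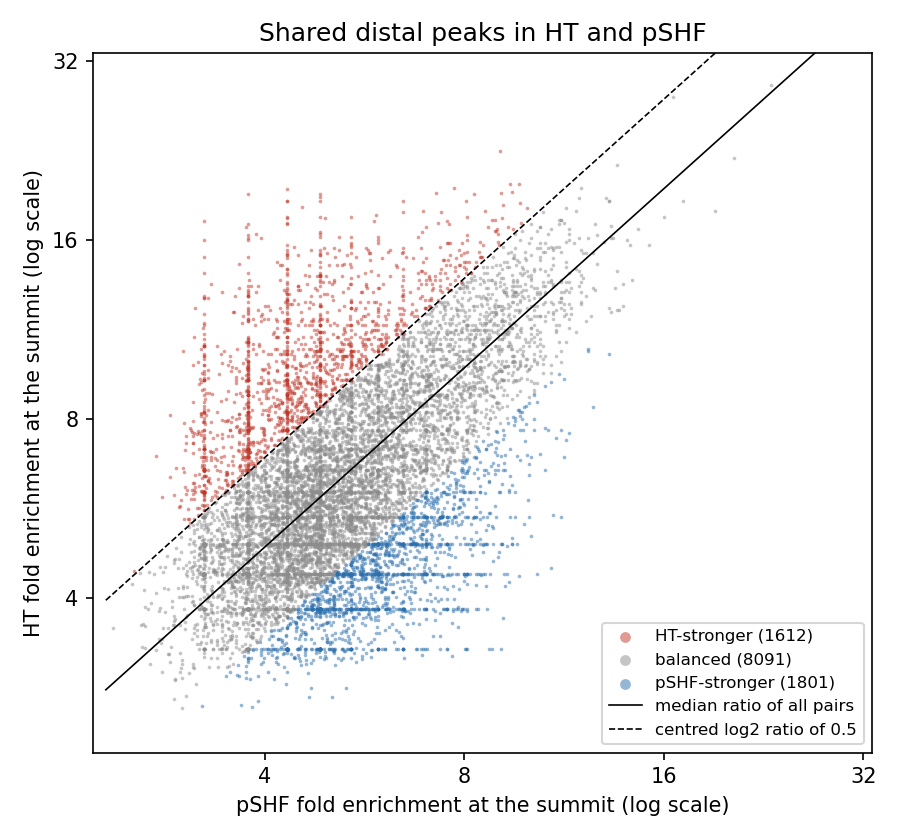
Fold enrichment at the summit in HT (y axis, log scale) against pSHF (x axis, log scale) for the 11504 shared distal peaks, coloured by class. The solid line is the median ratio of all pairs, the dashed line the threshold of 0.5 above it, and the 1612 members lie on or above the dashed line by construction.

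The members lay over 1 kb from gene ends by the rule, and most were inside genes. The median width of members was 336 bp in HT and 224 bp in pSHF, against 239 bp in HT and 270 bp in pSHF for balanced peaks and 185 bp in HT and 294 bp in pSHF for pSHF-stronger peaks, and the HT peak was at least as wide as the pSHF peak in 1149 members. Both summits were within 100 bp of each other in 75.3% of members, against 77.5% of balanced peaks and 75% of pSHF-stronger peaks. The HT summit lay a median of 11013 bp from the nearest gene end, against 8959 bp for balanced and 11267 bp for pSHF-stronger peaks. Inside a gene body lay 61.9% of members (interval 59.5 to 64.3), against 64.7% of balanced (63.7 to 65.8) and 60.3% of pSHF-stronger peaks (58.0 to 62.6). No protein-coding gene was within 100 kb of 158 members (9.80%). Members are named below by the nearest such gene within 100 kb, which need not hold the peak. Members were found on all 20 chromosomes, from 10.1% of the distal pairs of chromosome 14 (interval 7.47 to 13.3) to 18.5% of those of chromosome 13 (15.2 to 22.1).

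The highest ratio was at *Ebf1*, which encodes an early B-cell factor that also acts in mesenchyme. The peak, chr11:44746717-44747180 within the gene, had fold enrichments of 17.2 in HT and 3.23 in pSHF (centred log2 ratio 2.13), from pileups of 47 in HT and 5 in pSHF. The second was 69608 bp from *Hlx*, a homeobox gene of the visceral mesenchyme, at chr1:184657264-184657664, with 19.1 in HT and 3.77 in pSHF (2.05). The other members among the 10 highest ratios had 14.1 to 19.5 in HT and 3.23 to 4.31 in pSHF. They lay in *Golim4*, *Nkain2* and *Mbnl1*, a splicing factor gene, or nearest *Ptprd*, *Hmgcll1*, *Ndfip2* and *N4bp2*, and 1 on chromosome 8 had no protein-coding gene within 100 kb. Among these 10, the lower bound of the pileup ratio's counting interval was 0.88 or more on the centred log2 scale. Nothing is read from this bound, since the 10 were chosen by the fold enrichments from which the pileups were recovered.

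The 10 tallest HT peaks among members varied in height in pSHF. The highest was in *Pik3c3*, the gene of a phosphatidylinositol 3-kinase of autophagy, with 22.6 in HT and 9.05 in pSHF (centred log2 ratio 1.04). *Mrps27*, a gene of the mitochondrial ribosome, had 19.9 in HT and 9.67 in pSHF, and *Ccdc77* had 19.9 in HT and 9.38 in pSHF. *Usp46*, a deubiquitinase gene 58246 bp away (19.6 in HT and 7.71 in pSHF), and *Spty2d1* (19.2 in HT and 7.24 in pSHF) were close to them. So were *Oxr1*, an oxidation resistance gene (19.2 in HT and 9.09 in pSHF), and *Arrdc3*, 66972 bp away (19.1 in HT and 8.28 in pSHF). *Yeats2* had 19.1 in HT and 4.85 in pSHF, and *Nkain2*, also among the 10 highest ratios, had 19.5 in HT and 4.31 in pSHF. The remaining 1, on chromosome 3, had no protein-coding gene within 100 kb (19.3 in HT and 9.43 in pSHF).

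**Figure D3:**
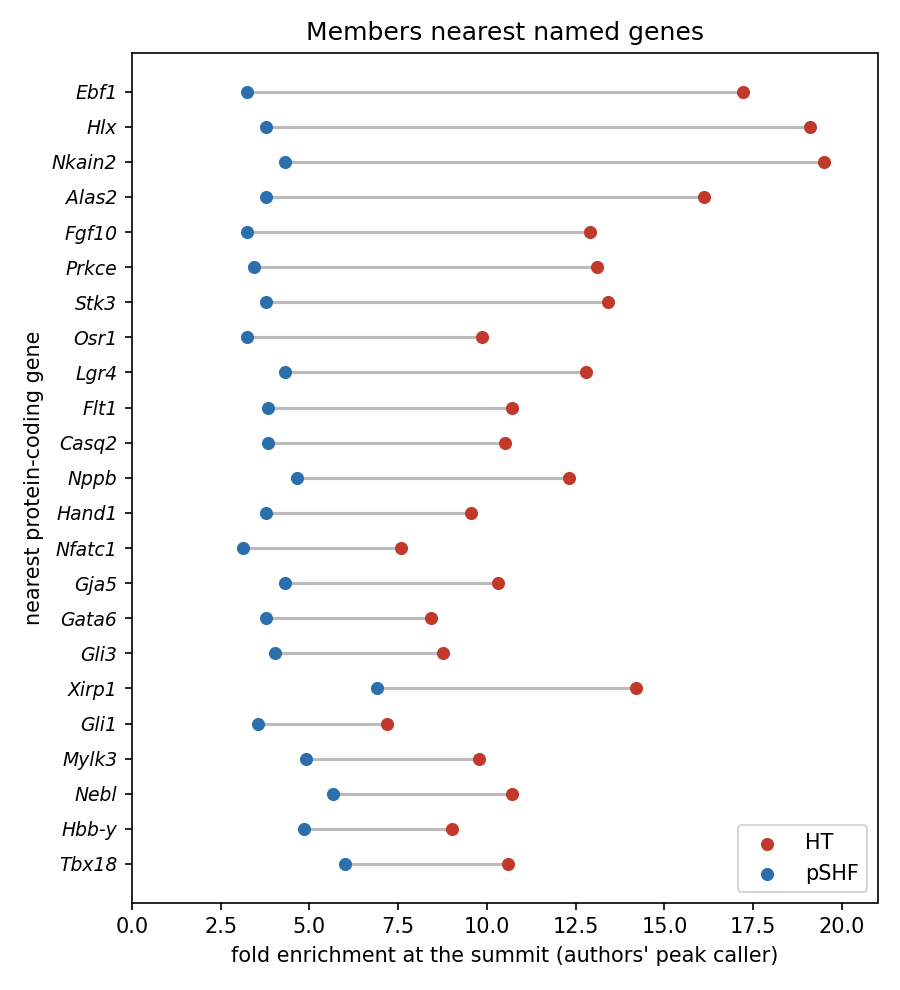
Fold enrichment in HT (red) and pSHF (blue) for the member with the highest centred ratio nearest each of several named genes (rows, ordered by that ratio from *Ebf1* at 2.13 to *Tbx18* at 0.54). The HT value is above the pSHF value in each, as the rule requires. The ratio falls down the rows, while the gap on the linear axis does not narrow at each row.

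Genes of cardiac identity had like shares of the members and of the other distal peaks. Of 88 genes in 4 cardiac lists (sarcomere, cardiac transcription factors, ion handling and atrial identity), 17 were nearest to a member, each to 1. That is 17 of 1612 members (1.05%, interval 0.616 to 1.68), beside 84 balanced (1.04%, 0.829 to 1.28) and 17 pSHF-stronger peaks (0.944%, 0.551 to 1.51). Members were 14.4% of the 118 distal pairs of these genes, beside 14.0% of all distal pairs. The pairs of sarcomere genes had a median centred log2 ratio of -0.16. Peaks found in 1 list alone differed in their numbers at these genes, since 283 HT-restricted peaks (1.26% of them) and 127 pSHF-restricted peaks (0.839%) lay nearest a gene of the 4 lists. At sarcomere genes there were 77 HT-restricted (0.344%) and 22 pSHF-restricted peaks (0.145%).

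Among ion handling genes, *Casq2*, which encodes the calcium store protein calsequestrin, had a member 23771 bp away with 10.5 in HT and 3.84 in pSHF. Within 50 kb of this member were 5 HT-restricted and 0 pSHF-restricted peaks, while 6 HT-restricted and 2 pSHF-restricted peaks lay nearest the gene. *Gja5*, the gene of the atrial gap junction protein connexin 40, had 10.3 in HT and 4.31 in pSHF. The members of *Asph*, *Kcnh2*, *Gja1* and *Ryr2* had centred log2 ratios between 0.50 (*Ryr2*) and 0.84 (*Asph*). At *Nppb*, which encodes the natriuretic peptide BNP, the member at chr4:147969378-147969722 had 12.3 in HT and 4.66 in pSHF. Within 50 kb of it lay 5 HT-restricted peaks and 1 pSHF-restricted peak, but 0 restricted peaks of either list were nearest *Nppb*. *Pam*, which encodes an enzyme of atrial granules, had 14.4 in HT and 7.74 in pSHF.

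*Hand1*, a basic helix-loop-helix factor gene, had the highest ratio among cardiac transcription factors, with 9.54 in HT and 3.77 in pSHF, 44248 bp from the gene. *Gata6*, a zinc finger factor gene of heart and gut, had 8.42 in HT and 3.77 in pSHF, 59455 bp from the gene. *Prdm16* had 8.93 in HT and 4.34 in pSHF. *Tbx18*, a T-box gene of the venous pole and epicardium, had 10.6 in HT and 5.99 in pSHF, 84337 bp from the gene. Restricted peaks nearest the gene numbered 2 in HT and 0 in pSHF at *Hand1* and 3 in HT and 0 in pSHF at *Gata6*. They numbered 6 in HT and 9 in pSHF at *Prdm16* and 2 in HT and 6 in pSHF at *Tbx18*. *Hand1* and *Gata6* also had 1 pSHF-stronger peak each. *Tbx5* and *Myocd*, a coactivator of serum response factor, had members with centred log2 ratios of 0.52 (*Tbx5*) and 0.51 (*Myocd*), close to the threshold. In the sarcomere list the members were nearest *Xirp1* (14.2 in HT and 6.90 in pSHF) and in *Nebl*, the nebulette gene (10.7 in HT and 5.66 in pSHF). *Myh7b*, a myosin gene that hosts a muscle microRNA and stood in no list, had members with 8.83 and 5.44 in HT, against 4.92 and 3.06 in pSHF (named after its values were seen).

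Erythroid genes had 6 members among their 18 distal pairs (33.3%, against 14.0% of all distal pairs). The median centred log2 ratio of those pairs was 0.23, against -0.04 over all distal pairs. The 6 were 0.372% of members (interval 0.137 to 0.808), against 0.124% of balanced (0.0593 to 0.227) and 0.111% of pSHF-stronger peaks (0.0135 to 0.401), with intervals that overlapped. Of the 20 genes in the list, 19 were found in the gene table, 9 had a distal pair and 3 had members. *Alas2*, which encodes the erythroid enzyme of haem synthesis, had members with 16.1 and 12.8 in HT, against 3.77 and 3.23 in pSHF. The members upstream in the beta-globin cluster, nearest the embryonic gene *Hbb-y* at 6107 and 12718 bp, had 9.02 and 12.3 in HT, against 4.85 and 7.0 in pSHF. HT-restricted peaks were dense around them, with 13 and 11 within 50 kb. *Nprl3*, whose introns hold the alpha-globin enhancers, stood in no list and was chosen after its values were seen. Its members had 10.1 and 13.5 in HT, against 3.23 and 5.37 in pSHF, beside 1 pSHF-stronger peak, 4 HT-restricted peaks and 1 pSHF-restricted peak nearest the gene.

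Restricted peaks nearest erythroid genes numbered 43 in HT (0.192% of HT-restricted peaks) and 10 in pSHF (0.0661% of pSHF-restricted peaks). The part of blood cells in the member values of other genes was not tested. The erythroid count was 9 by recovered pileup, 3 at a threshold of 1, 2 with 50% reciprocal overlap and 0 among pairs with a −log10 q of at least 5 in both lists. Endothelial and endocardial genes had 3 members among 40 distal pairs (7.50%, against 14.0% of all distal pairs, median centred log2 ratio 0.01). These were in *Flt1*, a receptor gene for vascular endothelial growth factor (10.7 in HT and 3.84 in pSHF), and in *Nfatc1*, a factor gene of the endocardium (7.58 and 7.56 in HT, against 3.13 and 3.16 in pSHF). Restricted peaks nearest *Flt1* numbered 6 in HT and 8 in pSHF, and nearest *Nfatc1* 5 in HT and 5 in pSHF.

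Visceral mesenchyme genes had 6 members among 17 distal pairs (35.3%, against 14.0% of all distal pairs), 3 of them at *Hlx*, and 5 of the 17 were pSHF-stronger. The 6 were 0.372% of members (interval 0.137 to 0.808), against 0.0742% of balanced peaks (0.0272 to 0.161), with intervals that overlapped. Nearest these genes were 29 HT-restricted peaks (0.129% of them) and 39 pSHF-restricted peaks (0.258%). The lists overlap, with 24 symbols in several of them. The members at *Hand1* and *Fgf10* count here and in another list, of cardiac transcription factors and of second heart field progenitors. The *Hlx* members had 16.5, 19.1 and 9.62 in HT, against 6.91, 3.77 and 4.17 in pSHF. All 3 stood within chr1:184600001-184700000, with 4 HT-restricted and 0 pSHF-restricted peaks and no other shared distal peak in that window. The member nearest *Fgf10*, a growth factor gene of the second heart field and lung bud, had 12.9 in HT and 3.23 in pSHF at a distance of 84871 bp.

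Second heart field and Hedgehog genes also had members. The progenitor list had 6 among 28 distal pairs (21.4%, against 14.0% of all distal pairs), beside 6 pSHF-stronger peaks. The median centred log2 ratio of the 28 was -0.08. *Osr1*, a factor gene of atrial septum progenitors, had 9.87 in HT and 3.23 in pSHF (centred log2 ratio 1.32), and *Foxc2*, a forkhead gene, had 7.44 in HT and 3.44 in pSHF (centred log2 ratio 0.83, and 0.39 by pileup). The members in *Meis1* and *Meis2*, homeobox genes, both had a centred log2 ratio of 0.54. Of 20 distal pairs of Hedgehog genes, 3 were members (15.0%, near the 14.0% of all distal pairs) and 6 pSHF-stronger. The median centred log2 ratio of these 20 was -0.17. *Gli1*, a target and effector of the pathway, had 7.18 in HT and 3.55 in pSHF. *Gli3*, the main repressor of the pathway, had 8.77 in HT and 4.02 in pSHF, 36564 bp from the gene. *Sufu*, an inhibitor of Gli factors, had 9.43 in HT and 4.58 in pSHF. Restricted peaks nearest *Gli3* numbered 4 in HT and 11 in pSHF, beside 1 pSHF-stronger peak. By pileup, which was 26 in HT and 19 in pSHF, the centred log2 ratio at *Gli1* was 0.13 (counting interval -0.78 to 1.07), against 0.73 by fold enrichment. At *Gli3* the ratio by pileup was 0.78 (-0.60 to 2.31), against 0.84 by fold enrichment.

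Hippo pathway genes had 5 members among 28 distal pairs (17.9%, against 14.0% of all distal pairs) and as many pSHF-stronger peaks, and the median centred log2 ratio of the 28 was -0.09. *Stk3*, the gene of a core kinase, had members with 13.4 and 10.6 in HT, against 3.77 and 4.31 in pSHF, and 7 HT-restricted and 0 pSHF-restricted peaks nearest it. *Yap1*, the coactivator that the kinases restrain, had 14.7 in HT and 8.0 in pSHF. *Tead1*, its DNA-binding partner, had 7.90 and 8.66 in HT, against 3.55 and 4.37 in pSHF, beside 2 pSHF-stronger peaks. Single members were nearest *Lgr4*, a Wnt pathway receptor gene (12.8 in HT and 4.31 in pSHF), *Rxra*, a retinoid receptor gene (9.38 in HT and 4.73 in pSHF), *Bmp6* (9.87 in HT and 4.52 in pSHF), *Id2*, a target of Bmp signalling (7.03 in HT and 3.79 in pSHF), and *Pax6*, a neural gene (6.55 in HT and 3.42 in pSHF, centred log2 ratio 0.65, and 0.36 by pileup). The housekeeping list had *Actb* (10.2 in HT and 4.79 in pSHF) and *Eef1a1* (12.7 in HT and 5.07 in pSHF). The Notch, foregut endoderm, somite and neural crest lists had 0 members. Over all 21 lists, 51 members (3.16%) were nearest a listed gene, beside 3.47% of balanced and 3.55% of pSHF-stronger peaks.

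**Figure D4:**
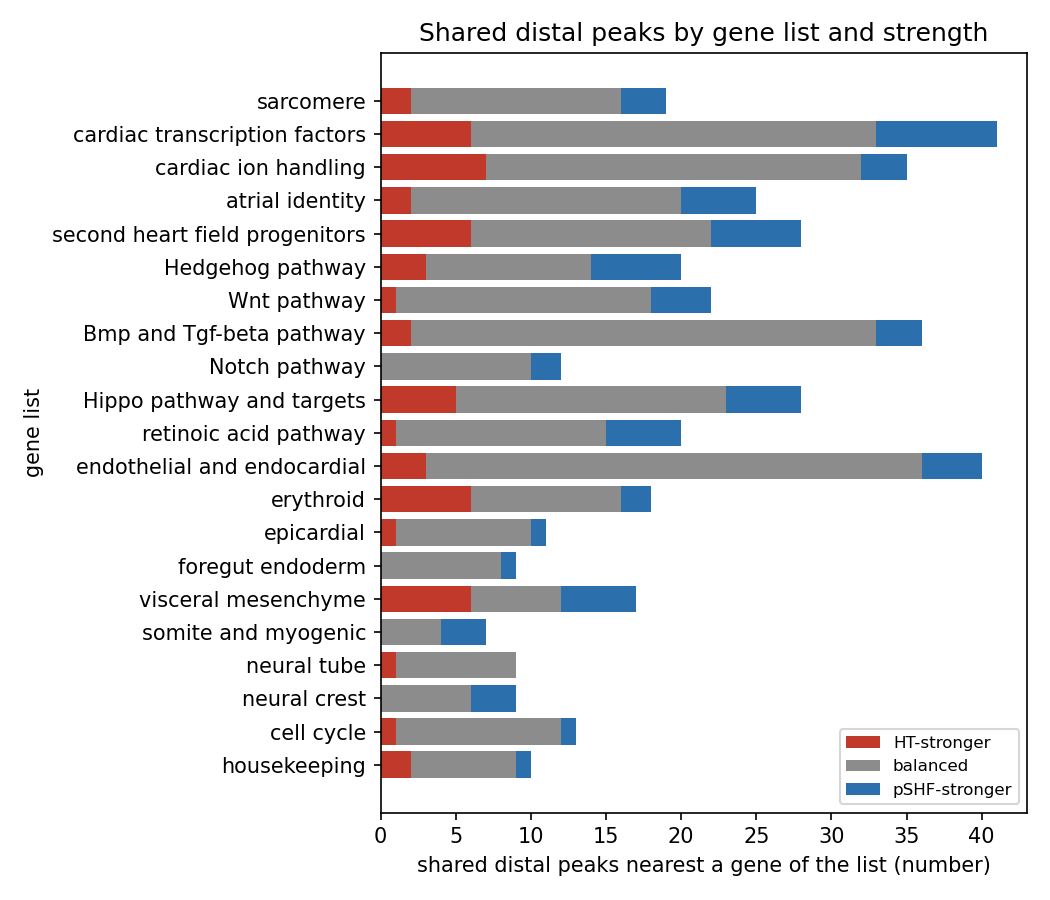
Number of shared distal peaks nearest a gene of each list (x axis), divided into HT-stronger (red), balanced (grey) and pSHF-stronger (blue). The erythroid and visceral mesenchyme lists have 6 members each among 18 and 17 peaks, and the 4 cardiac lists together 17 among 118.

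Members were spread over many genes. They lay nearest 1283 of the 6297 genes with a distal pair, and 1136 of these genes had 1 member, 127 had 2 and 20 had 3 or more. *Prkce*, the protein kinase C epsilon gene, had 4, with 13.1, 15.4, 15.3 and 7.20 in HT, against 3.45, 4.84, 6.13 and 3.76 in pSHF, beside 7 balanced and 0 pSHF-stronger peaks and 15 HT-restricted and 1 pSHF-restricted peak. *Slc39a8*, a zinc and manganese transporter gene, and *Dapp1*, an adaptor gene of phosphoinositide signalling, also had 4. Each had more restricted peaks in HT, 6 against 1 in pSHF at *Slc39a8* and 7 against 1 in pSHF at *Dapp1*. *Nfia*, a factor gene of the nuclear factor I family, differed from these, since its 4 members stood among 8 balanced and 4 pSHF-stronger peaks. *Zfand6*, *Ncoa7*, a nuclear receptor coactivator gene, *Ankrd6*, *Tbc1d2b* and *Tom1l1* had 3 each. The window of 100 kb with the highest summed HT fold enrichment among those with 4 members, chr3:144600001-144700000 by *Selenof* and *Sh3glb1*, held values of 10.2, 11, 10.9 and 16 in HT, against 5.42, 3.13, 5.96 and 8.08 in pSHF. The other window with 4 was chr3:137900001-138000000 at *Dapp1*.

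Peaks found in HT alone were more often close to members than to the other distal peaks. An HT-restricted peak lay within 50 kb of 76.1% of members (interval 74.0 to 78.2), against 72.0% of balanced (71.0 to 72.9) and 68.6% of pSHF-stronger peaks (66.4 to 70.7). A pSHF-restricted peak lay within 50 kb of 55.3% of members (52.8 to 57.7), against 59.4% of balanced (58.3 to 60.5) and 61.0% of pSHF-stronger peaks (58.7 to 63.3). The mean number around a member was 1.91 HT-restricted and 0.921 pSHF-restricted peaks, against 1.62 and 1.07 around balanced peaks and 1.5 and 1.11 around pSHF-stronger peaks. Another member was within 50 kb of 16.4% of members (14.6 to 18.3), against 11.5% of balanced and 9.83% of pSHF-stronger peaks. Nothing is read from this share, since the same ratio chose the peak and its neighbour. The like share of pSHF-stronger peaks near each other was not computed. The restricted peaks did not enter the choice of members, but they come from the same libraries, and neighbouring members share their surroundings.

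For HT-restricted peaks the order of the classes was the same among peaks of like height, where the intervals of members and balanced peaks overlapped. With a geometric mean of both fold enrichments from 4 to 5.66, an HT-restricted peak lay near 76.2% of members (71.9 to 80.1), against 72.0% of balanced peaks (70.5 to 73.4). From 5.66 to 8 these shares were 76.1% of members (73.0 to 78.9) and 72.0% of balanced peaks (70.1 to 73.8), and from 8 to 11.3 they were 76.9% (71.7 to 81.6) and 69.9% (66.8 to 72.8), for members and balanced peaks. For pSHF-restricted peaks the order over the classes did not hold in each range of height. From 4 to 5.66 their shares were 59.2% of members, 60.9% of balanced and 60.2% of pSHF-stronger peaks, from 5.66 to 8 they were 55.5%, 58.7% and 64.4% in these classes, and from 8 to 11.3 they were 50.5%, 53.0% and 50%. With 50% reciprocal overlap, under which more peaks count as restricted, the shares were 81.9% of members (79.4 to 84.3) and 80.8% of balanced peaks (79.8 to 81.8), so that their intervals overlapped. With 1 list per tissue none of these differences could be tested across samples.

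**Figure D5:**
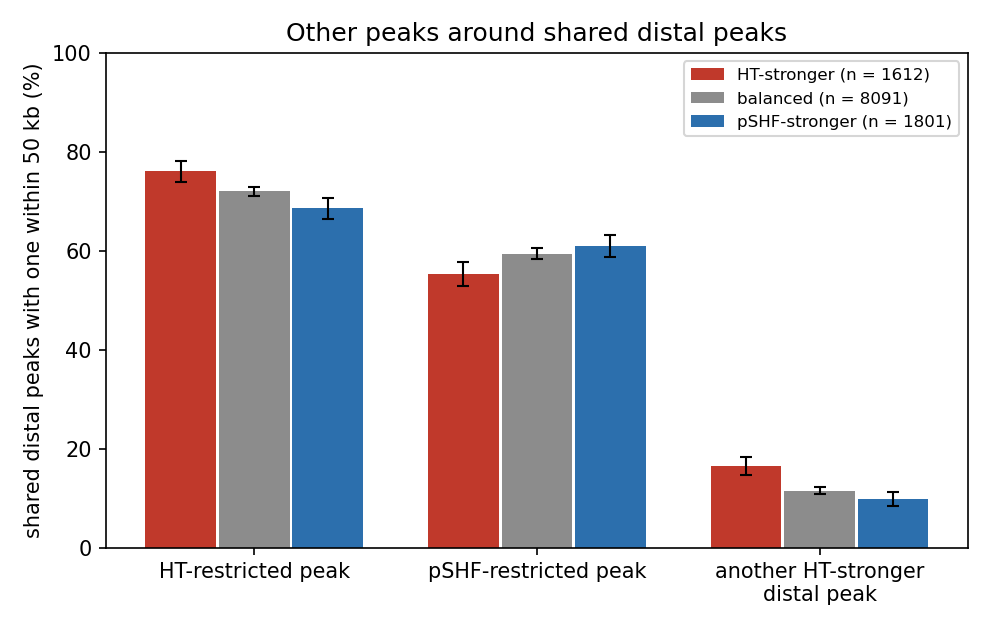
Percent of HT-stronger, balanced and pSHF-stronger shared distal peaks (1612, 8091 and 1801) with an HT-restricted peak, a pSHF-restricted peak or another HT-stronger distal peak within 50 kb of the HT summit, with exact 95% intervals over peaks. The members have 76.1%, 55.3% and 16.4%. In the third measure the neighbours were chosen by the same ratio as the classes.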

How the data were processed

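Open chromatin of HT and pSHF was profiled by ATAC-seq. MACS2 2.1.1, Bowtie2 2.3.2, Picard, SAMtools 1.5 and the build mm10 are named in the submitters' processing notes. What each tool did, with which parameters, and whether the 3 samples per tissue were pooled for peak calling is not stated in the sources used here. The deposited lists hold, per summit, the authors' score (10 times the −log10 q), their fold enrichment as a ratio over background, and their −log10 p-value and −log10 q-value, with 60223 lines for HT and 58887 for pSHF. Lines of equal interval were merged to the summit of highest fold enrichment, which left 49267 HT and 44018 pSHF peaks. Peaks overlapping by at least 1 bp were shared, the others restricted (22400 HT and 15132 pSHF). Reads per library are unknown, but the fold enrichment and −log10 p gave a whole pileup at 100% of summits (within 0.001 on the log10 scale of the p-value), with a background of 0.824 in HT and 0.857 in pSHF. The members and gene lists were chosen with earlier results of these data known. Genes are the RefSeq table of GRCm38.p6, the assembly of mm10; the nearest protein-coding gene body within 100 kb is a label of position. It gave 357 of 358 listed symbols. Named genes were those nearest the 10 highest ratios, the 10 highest HT values, the 10 genes with most members, up to 3 per list, 2 pairs on each side of the threshold and the 3 windows with most members. Other genes, among them *Ryr2*, *Gja1*, *Asph*, *Kcnh2*, *Tbx5*, *Myocd*, *Meis1* and *Meis2*, were named after their values were seen. RefSeq starts were not used for the 52 members on chromosome 18. Some genes that the rule names are not reported here. Motifs in the members themselves were not searched, since no genome sequence was used here. Alternatives changed the threshold, centring, distance, overlap, q and height measure. Python 3.11.15, numpy 2.4.6, pandas 2.3.3, scipy 1.17.1 and matplotlib 3.10.9 were used, and the functions were tested on simulated peaks.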

Additional observations from a re-analysis of the deposited data

How the results depend on the processing

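The number of members depends on the rule's settings. It was 3148 at a threshold of 0.25, 401 at a threshold of 1, 3403 without centring, 1019 with 50% reciprocal overlap and 344 with a −log10 q of at least 5 in both lists, and between 1180 and 1872 under the other settings run, among them 1521 without summits within 250 bp of a RefSeq start, a setting chosen after seeing the data. The share inside a gene body was 65.4% at that q and 64.4% by recovered pileup, and otherwise stayed within its interval. The share with an HT-restricted peak nearby was 52.9% at that q, where fewer restricted peaks were kept, 78.6% by recovered pileup, 81.9% with reciprocal overlap, 31.3% within 10 kb and 89.6% within 100 kb. At that q it was 52.9% for members and 44.3% for balanced peaks, and by recovered pileup 78.6% for members and 71.5% for balanced peaks. The cardiac share lay between 0.931% and 1.34%, inside its interval under each setting run. The GATA share of members was not run, since no genome sequence was used here. No paired analysis was possible because each tissue has 1 deposited list. Pileups of 5 to 34 limit the pSHF values of members.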
